A study of Mus musculus with 16 samples.

Results

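The genes described here are 10 genes of lipid droplets and triglyceride turnover, measured in skeletal muscle of 16 male C57BL/6J mice. They are the droplet coat genes Plin2, Plin3, Plin4, and Plin5, the lipase genes Pnpla2, Lipe, and Mgll, and the synthesis genes Dgat1, Dgat2, and Gpam. They were taken by gene name from the deposited mRNA table, which holds 23235 gene names, and the counts of their 52 transcripts were summed per gene. All 10 genes passed the filter on low counts and were among the 15364 genes tested. The study had 4 groups of 4 mice. The control mice received a normal diet. The HFD mice received a high-fat diet with 60% fat, and the study describes this diet as a model of insulin resistance established over 8 weeks. The HFD + RSV mice and the HFD + metformin mice received the same high-fat diet and were then treated with resveratrol or metformin for 6 weeks. All mice were purchased at 6 weeks of age, and each mouse gave 1 library. The muscle that was taken is not given in the sources used here. A random subset of the mice of the study was injected with insulin before tissue collection, and whether the sequenced mice were among them is not given in the sources used here. The labels of the 4 HFD mice begin with a number that no other mouse carries, so whatever that number marks cannot be told apart from the untreated high-fat diet.

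Skeletal muscle fibres store a part of their fatty acids as triglyceride in lipid droplets. Perilipins coat these droplets and control the access of lipases. Triglyceride is broken down in sequence by adipose triglyceride lipase (encoded by Pnpla2), hormone-sensitive lipase (Lipe), and monoacylglycerol lipase (Mgll). Its synthesis begins with glycerol-3-phosphate acyltransferases such as the mitochondrial enzyme encoded by Gpam and ends with the diacylglycerol acyltransferases encoded by Dgat1 and Dgat2. The same genes are expressed by adipocytes, which lie between the fibres and around the muscle.

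Each mouse gave between 20281801 and 34021101 counts in both deposited tables together, and the mRNA table held 17625909 to 29761026 of them. The 5 skeletal muscle markers Acta1, Ckm, Ttn, Des, and Mb summed to 132500 to 253800 CPM (counts scaled to a common library size) in every mouse. The 9 white adipocyte markers, among them Adipoq, Plin1, and Fabp4, were present in all 16 mice and none was at 0. Their summed level stood apart in 2 libraries, with 4842 CPM in control replicate 3 and 4586 CPM in HFD + metformin replicate 3. In the other mice it ranged from 1071 to 1799 CPM in the control group, from 214.6 to 1100 CPM in the HFD group, from 308 to 1261 CPM in the HFD + RSV group, and from 216.7 to 1793 CPM in the HFD + metformin group. The same 2 libraries had the lowest fast fibre marker sums, at 63800 and 63810 CPM. The main results for the 10 genes are given with and without these libraries where they moved. Leaving these libraries out was chosen after seeing the data.

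Of the 10 genes, 9 had a lower fitted level in HFD mice than in control mice, but none passed the test at an adjusted P below 0.05 (edgeR quasi-likelihood test, Benjamini-Hochberg adjustment over all genes tested). In this comparison, 2.43% of all genes were called. At an unadjusted P below 0.05, 6 of the 10 genes passed, against 24.2% of all genes. The median log2FC of the 10 genes was −1.08, and that of all genes was −0.018. With the additional requirement of an absolute log2FC above 1, 5 of the 10 genes were lower in the HFD group, against 4.03% of all genes. The study names a P below 0.05 and this fold limit, and also states that its P threshold came from control of the false discovery rate. Without both libraries with the highest adipocyte marker sums, 3 of the 10 met the criteria of unadjusted P and fold (Pnpla2, Dgat1, and Dgat2), against 2.92%. The 5 genes of all mice, Plin2, Pnpla2, Lipe, Dgat1, and Dgat2, were also those in which every HFD mouse lay below every control mouse, which held for 9.44% of all genes. DESeq2 called 4 of the 10 genes, namely Plin2, Pnpla2, Dgat1, and Dgat2, against 9.92% of all genes. A fit to the 12 mice without metformin called Pnpla2, Lipe, Dgat1, and Dgat2, against 10.7% of all genes, and a fit to the 8 mice of both groups called Pnpla2 and Dgat2, against 6.74% of all genes. Across the 4 groups, none of the 10 genes differed at an adjusted P below 0.05, against 0.117% of all genes, and the smallest adjusted P was 0.158, for Dgat2. At an unadjusted P below 0.05, 4 of the 10 passed this test, against 15.4% of all genes.

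**Figure D1:**
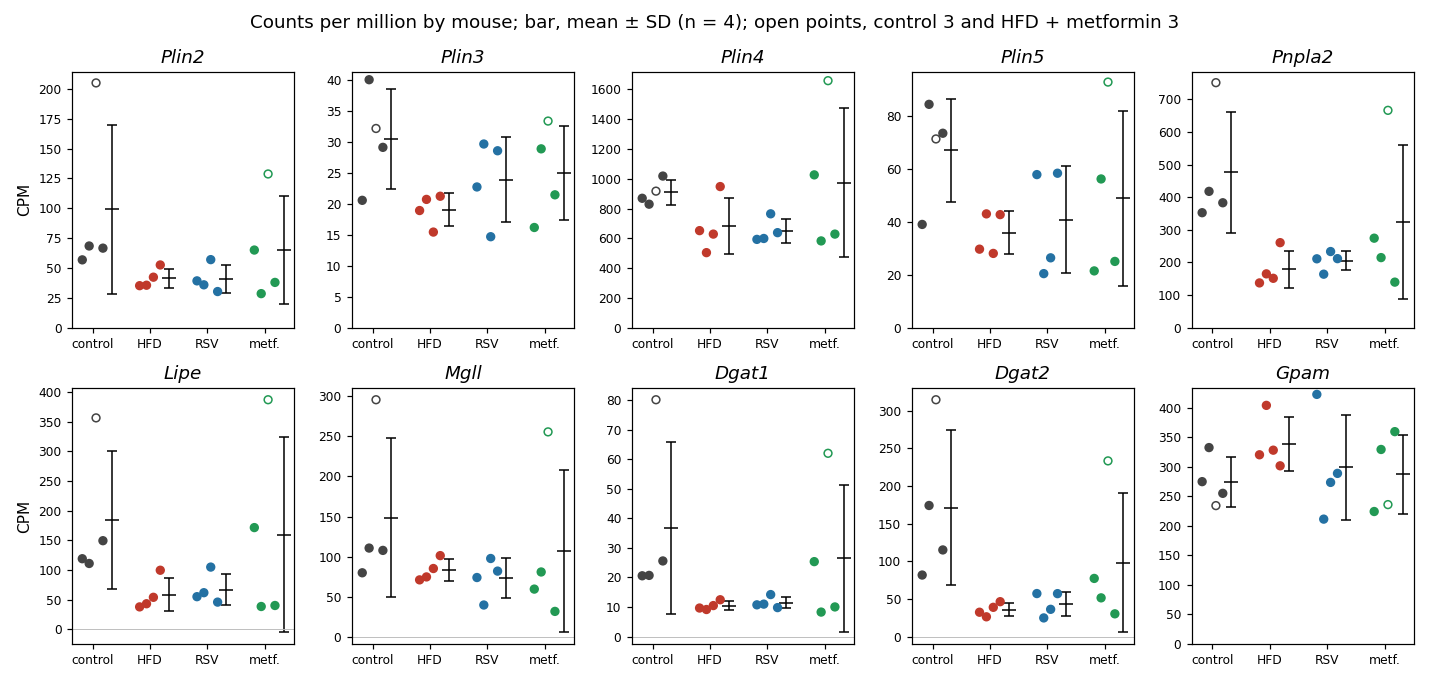
CPM of each of the 10 genes (vertical axes, linear) in the control, HFD, HFD + RSV, and HFD + metformin groups, with 1 point per mouse and bars for the mean ± SD (n = 4). Open points are control replicate 3 and HFD + metformin replicate 3, which had the highest level of Dgat1 in their groups, at 80.1 and 62.0 CPM.

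The per-mouse plot shows that control replicate 3 was the highest control mouse for 6 of the 10 genes, and that HFD + metformin replicate 3 was the highest of its group for 9 of them. Plin4 and Plin5 lie next to each other on the minus strand of chromosome 17 (GRCm38), with 1797 bases between their deposited transcripts. Plin4 spans chr17:56100591-56109803 and Plin5 spans chr17:56111601-56117596. Plin3 lies on the same chromosome at chr17:56278962-56290511, and Plin2 lies at chr4:86648386-86670060, both on the minus strand.

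Plin4, a perilipin of small droplets that is abundant in muscle and adipocytes, had 869, 829, 917, and 1018 CPM in the 4 control mice, and 651, 503, 628, and 947 CPM in the HFD mice. A single HFD mouse reached the range of the control mice. The log2FC was −0.41 ± 0.28 (SE, adjusted P = 0.376, edgeR).

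Plin5, a perilipin of oxidative tissues that links droplets to mitochondria and restrains lipolysis by Pnpla2, had 39, 84.5, 71.4, and 73.6 CPM in the control mice and 29.7, 43, 28.1, and 42.8 CPM in the HFD mice. The first control mouse lay within the HFD range, and the other control mice lay above it. The log2FC was −0.90 ± 0.45 (SE, adjusted P = 0.235, edgeR).

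Plin2 is the general coat protein of droplets outside adipocytes. Its levels were 56.7, 68.4, 205, and 66.6 CPM in the control mice, and 35.1, 35.5, 42.2, and 52.5 CPM in the HFD mice. The groups did not overlap, and the highest control value came from the library with the highest adipocyte marker sum. The log2FC was −1.26 ± 0.47 (SE, adjusted P = 0.127, edgeR), and it was −0.63 with an adjusted P of 0.198 without control replicate 3 and HFD + metformin replicate 3. Its adjusted P ranged from 0.0487 to 0.444 over 16 alternatives.

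Plin3, a cytosolic perilipin that binds newly formed droplets, had the lowest FPKM of the 4 perilipins in the control group, at 13 ± 3.91 (SD, n = 4). It had 20.6, 40.1, 32.2, and 29.1 CPM in the control mice and 18.9, 20.7, 15.4, and 21.2 CPM in the HFD mice. The lowest control mouse fell inside the HFD range. The log2FC was −0.68 ± 0.25 (SE, adjusted P = 0.129, edgeR) and was −0.66 without both libraries.

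The bases before the start sites of Plin4, Plin5, Plin2, and Pnpla2 are shown because Plin4 and Plin5 are neighbours with a low correlation between mice (r of log2 CPM 0.40, n = 16), and Plin2 and Pnpla2 are a perilipin and a lipase with a high one (0.90). The RefSeq promoter table (GRCm38.p6) held 12 entries for 8 of the 10 genes, with none for Dgat1 and Dgat2. Each sequence is written 5′ to 3′ on the strand of the gene, and bases inside the deposited transcripts of the gene were left out. Capitals mark the letters AGGTCA (the core of many nuclear receptor sites), CCAAT (the CCAAT box), GGGCGG (the GC box), and CACGTG (an E-box) on either strand.
Plin4 at chr17:56109804-56110032: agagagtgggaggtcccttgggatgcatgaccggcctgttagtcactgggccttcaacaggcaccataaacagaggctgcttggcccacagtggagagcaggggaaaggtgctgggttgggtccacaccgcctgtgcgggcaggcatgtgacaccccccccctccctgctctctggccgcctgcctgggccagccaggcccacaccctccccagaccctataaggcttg
Plin5 at chr17:56117597-56117798: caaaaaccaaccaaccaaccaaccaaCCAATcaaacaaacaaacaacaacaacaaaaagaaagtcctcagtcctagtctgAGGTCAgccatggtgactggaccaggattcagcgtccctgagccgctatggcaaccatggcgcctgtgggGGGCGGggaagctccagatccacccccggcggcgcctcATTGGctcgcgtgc
Plin2 at chr4:86670061-86670309: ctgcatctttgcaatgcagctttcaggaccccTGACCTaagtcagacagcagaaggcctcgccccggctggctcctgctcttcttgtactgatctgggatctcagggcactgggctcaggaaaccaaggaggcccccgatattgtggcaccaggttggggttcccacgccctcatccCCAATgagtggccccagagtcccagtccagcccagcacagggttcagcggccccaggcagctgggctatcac
Pnpla2 at chr7:141454938-141455187: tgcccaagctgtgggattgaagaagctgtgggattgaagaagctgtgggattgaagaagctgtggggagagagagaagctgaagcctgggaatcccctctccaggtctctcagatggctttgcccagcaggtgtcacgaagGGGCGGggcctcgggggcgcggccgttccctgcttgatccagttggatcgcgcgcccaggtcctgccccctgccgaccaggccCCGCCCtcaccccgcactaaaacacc

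In the full 250 bases of the entries shown, Plin5 held 1 AGGTCA, 2 CCAAT, and 1 GGGCGG match. This Plin5 entry covers the start of ENSMUST00000019808, which held 10.6% to 16.2% of the Plin5 counts in the group means. The other Plin5 entry, at chr17:56117299-56117548, lies directly before ENSMUST00000113072, which held 83.8% to 89.4%. It held 2 GGGCGG matches and no AGGTCA or CCAAT match, and its bases lie inside a deposited transcript. Plin2 held 1 AGGTCA and 1 CCAAT match, and Pnpla2 held 2 GGGCGG matches. Plin4 held 1 CCAAT match, which lay in the bases left out. These matches did not overlap one another. Among all 32851 promoters of the table, AGGTCA was found in 14%, CCAAT in 33.8%, GGGCGG in 32.7%, and CACGTG in 6.02%. Of the 12 entries of the 10 genes, 3 held AGGTCA, 5 held CCAAT, 7 held GGGCGG, and 2 held CACGTG. A match describes the letters in this window and not the binding of a factor.

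The lipase of the first step, Pnpla2 (chr7:141455198-141460743, plus strand), had 353, 418, 752, and 383 CPM in the control mice. In the HFD mice it had 137, 165, 151, and 261 CPM. Every HFD mouse lay below every control mouse. The log2FC was −1.42 ± 0.40 (SE), equal to a 2.67-fold lower level, with an adjusted P of 0.0676 (edgeR) and an exact permutation P of 0.0286, the smallest that 4 mice against 4 can give. Without both libraries with the highest adipocyte marker sums, the log2FC was −1.11 ± 0.24 (SE) and the adjusted P was 0.0278. This alternative was chosen after seeing the data, and it left out the control mouse with the highest Pnpla2 level. Over 16 alternatives, the adjusted P of Pnpla2 ranged from 0.00781 to 0.209.

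Lipe (chr7:25379527-25398710, minus strand), which encodes the lipase that acts mainly on diacylglycerol, had 119, 111, 357, and 149 CPM in the control mice. The HFD mice had 37.8, 43.1, 53.9, and 99.6 CPM. The groups did not overlap, but the highest HFD mouse lay close to the lowest control mouse. The log2FC was −1.65 ± 0.66 (SE, adjusted P = 0.149, edgeR), and it was −1.11 with an adjusted P of 0.239 without both libraries. Over 16 alternatives, the adjusted P of Lipe ranged from 0.0391 to 0.415.

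Mgll (chr6:88724412-88828360, plus strand), which encodes the lipase of the last step, had 80, 111, 295, and 108 CPM in the control mice and 71.2, 74.9, 85.4, and 101 CPM in the HFD mice. The lowest control mouse fell inside the HFD range. The log2FC was −0.84 ± 0.54 (SE, adjusted P = 0.36, edgeR), and without both libraries it was −0.26.

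Dgat2 had the largest fitted difference of the 10 genes between HFD mice and control mice. Dgat2 (chr7:99153658-99182719, minus strand) encodes the acyltransferase that is found at droplets as well as in the endoplasmic reticulum. Its levels were 81.7, 174, 315, and 115 CPM in the control mice, and 32.3, 26.2, 38.8, and 46.3 CPM in the HFD mice. The groups did not overlap. The log2FC was −2.26 ± 0.57 (SE), a 4.78-fold lower level, with an adjusted P of 0.0534 (edgeR) and an exact permutation P of 0.0286. The adjusted P passed the threshold without control replicate 1 (log2FC −2.49, adjusted P = 0.034), and without both libraries with the highest adipocyte marker sums (log2FC −1.79 ± 0.37 (SE), adjusted P = 0.0248). Both libraries held the highest Dgat2 level of their groups, and leaving them out was chosen after seeing the data. Over 16 alternatives, the adjusted P of Dgat2 ranged from 0.00118 to 0.17. Without these libraries, Pnpla2 and Dgat2 were the 2 called genes of the 10, against 3.58% of all genes.

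Dgat1 (chr15:76502015-76511951, minus strand), which encodes the acyltransferase of the endoplasmic reticulum, had 20.6, 20.7, 80.1, and 25.6 CPM in the control mice, and 9.65, 9.15, 10.5, and 12.5 CPM in the HFD mice. The groups did not overlap, and the HFD mice differed little from each other. The log2FC was −1.82 ± 0.58 (SE, adjusted P = 0.0894, edgeR), and it was −1.10 with an adjusted P of 0.0652 without both libraries. Its adjusted P ranged from 0.0145 to 0.304 over 16 alternatives.

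Gpam (chr19:55069734-55099451, minus strand) was the exception in direction. Its levels were 275, 332, 234, and 255 CPM in the control mice and 320, 404, 328, and 302 CPM in the HFD mice, and the groups overlapped. The log2FC was 0.30 ± 0.20 (SE, adjusted P = 0.374, edgeR).

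Levels of different genes were compared per transcript length, as the deposited FPKM values summed per gene. In the control group, Pnpla2 was the highest of the 10 genes at 229 ± 106 FPKM (SD, n = 4), followed by Plin4 at 144 ± 19 FPKM. The ranges of 1 SD around both means overlapped, but Pnpla2 lay above Plin4 in each control mouse. Pnpla2 had 384 FPKM in control replicate 3 and 148 to 199 FPKM in the other control mice. Dgat2, Lipe, Plin2, and Gpam had mean levels from 64.9 to 84.6 FPKM, and their ranges of 1 SD overlapped. In the HFD group, Plin4 was the highest at 98.6 ± 33.3 FPKM, and Pnpla2 and Gpam followed at 77.3 ± 30.4 and 72.3 ± 7.1 FPKM. The ranges of 1 SD around these 3 means overlapped. Dgat1 and Plin3 were lowest in the HFD group, at 5.88 ± 1.32 and 7.28 ± 1.22 FPKM.

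The question of the resveratrol comparison was whether treatment changed the muscle transcriptome of the HFD mice. None of the 10 genes was called in HFD + RSV mice relative to HFD mice, against 0% of all genes, and none passed an unadjusted P below 0.05, against 4.72% of all genes. DESeq2 also called none of the 10. All 10 genes overlapped between the groups, while the groups did not overlap for 4.2% of all genes, and 0 of the 10 met the criteria of unadjusted P and fold in the higher direction, against 0.885% of all genes. The median log2FC was 0.16, with 6 genes higher and 4 lower.

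Dgat2 had 57.1, 24.7, 36.2, and 57 CPM in the HFD + RSV mice. These values spanned the whole range of the HFD mice and remained below each control mouse. The log2FC against the HFD group was 0.29, with a 95% confidence interval of −0.89 to 1.46 (adjusted P = 0.999, edgeR). The narrowest interval was that of Gpam, with a log2FC of −0.18 (−0.61 to 0.26), and the widest was that of Lipe, at 0.19 (−1.19 to 1.58). Plin5 fell into a high and a low pair within the HFD + RSV group, with 57.9 and 58.4 CPM in replicates 1 and 4 and with 20.4 and 26.4 CPM in replicates 2 and 3. The slow or oxidative fibre marker sums of these mice were 3321 and 5128 CPM in the former and 825.2 and 1021 CPM in the latter. Of these sums, Myh2 alone gave 3205 and 3756 CPM in the former and 322.7 and 807.8 CPM in the latter. The other markers of the list did not follow this division. Each was lower in replicate 1 than in replicate 2, as for Myh7 with 7.07 and 189 CPM. The part of fibre composition in the level of Plin5 was not tested.

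**Figure D2:**
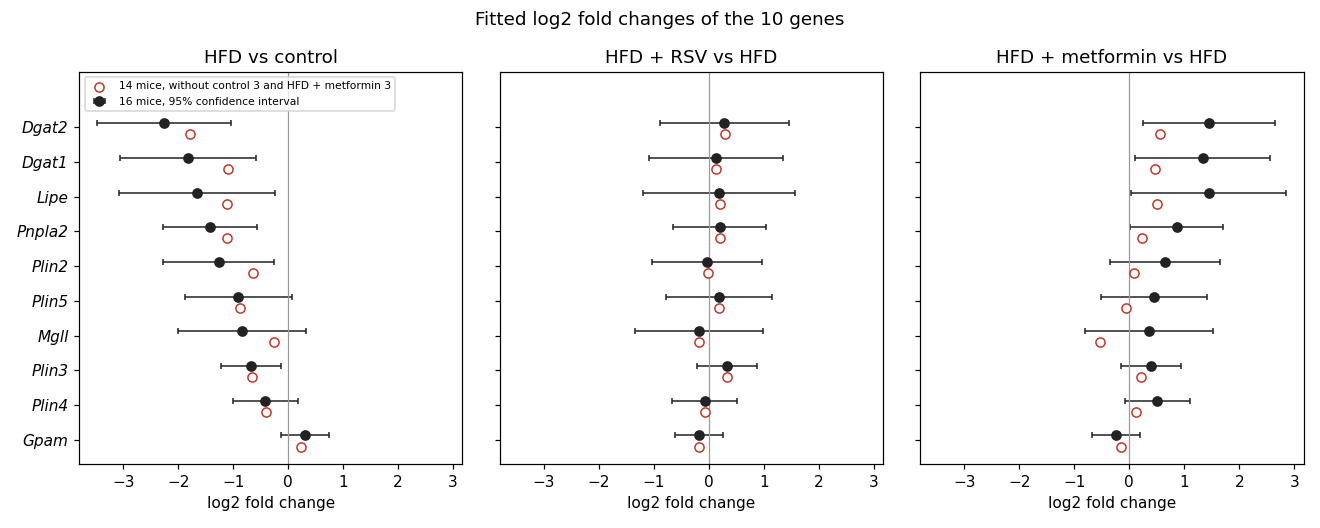
Fitted log2FC of the 10 genes (horizontal axis; vertical axis, genes) in HFD mice relative to control mice and in each treated group against the HFD group. Filled points are the fit to 16 mice with 95% confidence intervals and open points are the fit without control replicate 3 and HFD + metformin replicate 3, in which Lipe under metformin moved from 1.44 to 0.50.

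The HFD + RSV group was also set against the control group, which it shares with the comparison of the HFD group. None of the 10 genes was called by edgeR, against 0.00651% of all genes, and 1 was called by DESeq2, against 2.69% of the genes with an adjusted P there. At an unadjusted P below 0.05, 5 of the 10 passed, against 15.8% of all genes, and 5 were lower by the criteria of unadjusted P and fold, against 2.13%. Without both libraries with the highest adipocyte marker sums, only Dgat2 of the 10 met these criteria, at a log2FC of −1.50, against 1.36% of all genes. The log2FC was then −0.65 for Plin2, −0.90 for Pnpla2, −0.91 for Lipe, and −0.96 for Dgat1. In Plin4, Pnpla2, Lipe, Dgat1, and Dgat2, every HFD + RSV mouse lay below every control mouse, against 5.88% of all genes. The log2FC was −1.97 ± 0.57 (SE, adjusted P = 0.166) for Dgat2 and −1.22 ± 0.40 (SE, adjusted P = 0.197) for Pnpla2. For Plin4, whose HFD + RSV mice had 593, 599, 764, and 638 CPM, it was −0.49 ± 0.28 (SE, adjusted P = 0.404).

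In the HFD + metformin group against the HFD group, 9 of the 10 genes had higher fitted levels and none was called, against 0.013% of all genes. At an unadjusted P below 0.05, Pnpla2, Lipe, Dgat1, and Dgat2 passed, against 8.02% of all genes, and DESeq2 called none of the 10. Lipe, Dgat1, and Dgat2 were higher by the criteria of unadjusted P and fold, against 1.35% of all genes. Without both libraries, 0 of the 10 met them, against 0.336%. The groups overlapped for all 10 genes, and did not overlap for 3.72% of all genes. Lipe had 172, 38.4, 387, and 40.1 CPM in the HFD + metformin mice. Replicates 1 and 3 lay above each HFD mouse, and replicates 2 and 4 lay at the low end of the HFD range. The log2FC of Lipe was 1.44 ± 0.66 (SE, adjusted P = 0.618).

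Dgat2 had 77.2, 51.4, 234, and 30.2 CPM in the HFD + metformin mice. Replicates 1, 2, and 3 lay above each HFD mouse and replicate 4 lay inside the HFD range. The log2FC was 1.45 ± 0.56 (SE, adjusted P = 0.612), and without both libraries with the highest adipocyte marker sums it was 0.56. For Dgat1, it was 1.34 with all mice and 0.47 without these libraries. For the lipases, the log2FC without these libraries was 0.23 for Pnpla2, 0.50 for Lipe, and −0.53 for Mgll. Against the control group, 0 of the 10 genes were called in the HFD + metformin group, against 0% of all genes, and none passed an unadjusted P below 0.05, against 9.5%. Without both libraries, Dgat2 was lower than in the control group by the criteria of unadjusted P and fold (log2FC −1.23, adjusted P = 0.203, edgeR), against 1.86% of all genes. For resveratrol against metformin with all mice, none of the 10 genes was called, against 0% of all genes, and none passed an unadjusted P below 0.05, against 4.68%. DESeq2 called none of the 10 genes in either comparison.

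The levels of most of the 10 genes followed the adipocyte marker sum from mouse to mouse. Fabp4 was the largest single part of this sum in every mouse, at 157.3 to 2222 CPM, and Cfd had 15.73 to 1374 CPM. Over the 16 mice, Pearson's r with the log2 white adipocyte marker sum was 0.98 for Lipe, 0.93 for Plin2 and Dgat1, 0.88 for Plin4, 0.86 for Pnpla2, 0.78 for Dgat2, and 0.67 for Mgll. It was 0.31 for Plin5 and 0.23 for Plin3, and Gpam ran the other way at −0.70. After the group means were subtracted, r was 0.97 for Lipe, 0.91 for Plin2, 0.79 for Pnpla2, 0.65 for Dgat2, 0.045 for Plin5, and −0.68 for Gpam. The points share library and depth, and these correlations are descriptions without a test. In these bulk samples, fewer adipocytes, less RNA of these genes per adipocyte, and lower levels within the muscle fibres cannot be told apart. Of the 9 white adipocyte markers, 8 had a lower fitted level in HFD mice than in control mice and none was called. The exception in direction was Lep, with a log2FC of 1.40 ± 1.14 (SE, adjusted P = 0.475, edgeR).

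**Figure D3:**
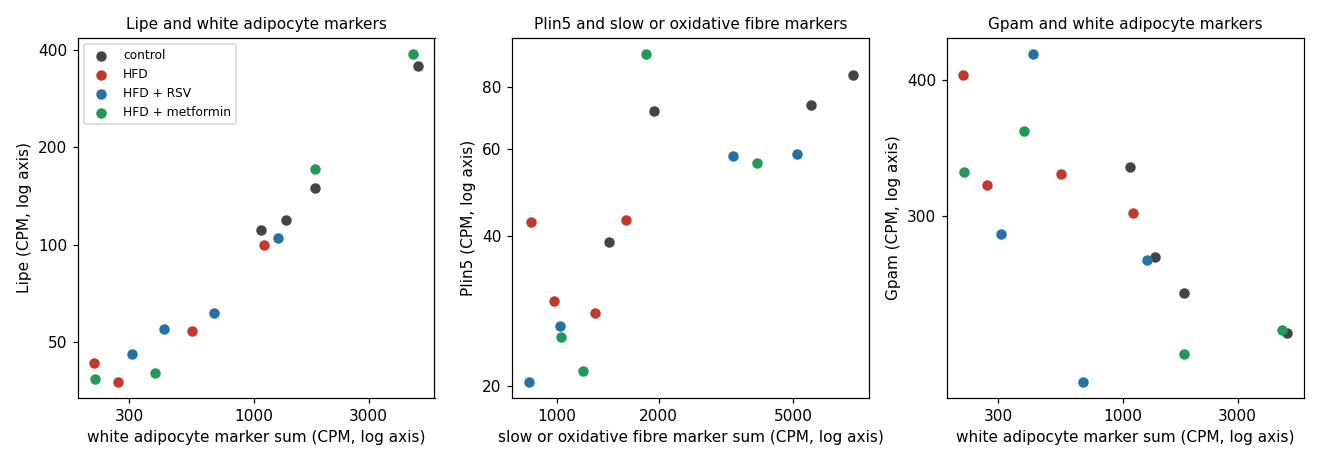
Lipe against the white adipocyte marker sum, Plin5 against the slow or oxidative fibre marker sum, and Gpam against the white adipocyte marker sum, all in CPM on log axes, with 1 point per mouse colored by group. Lipe and the marker sum lie in a single band through all groups (r = 0.98, n = 16), and Gpam ran downward (r = −0.70).

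The 8 slow or oxidative fibre markers, among them Myh7 and Tnni1, all had a lower fitted level in HFD mice than in control mice and none was called. Their sum ranged from 1429 to 7506 CPM in the control group, from 840.5 to 1603 CPM in the HFD group, from 825.2 to 5128 CPM in the HFD + RSV group, and from 1030 to 3913 CPM in the HFD + metformin group. Myh2 was the largest single part of this sum in every mouse, at 322.7 to 5193 CPM, while Myh7 had 2.71 to 916.6 CPM. Plin5 had an r of 0.77 with the log2 of this sum over the 16 mice and of 0.72 after subtraction of the group means. Before subtraction, r was 0.64 for Plin3, 0.49 for Dgat2, 0.35 for Pnpla2, 0.29 for Mgll, 0.20 for Gpam, and 0.11 for Dgat1, and Lipe, Plin2, and Plin4 had values from 0.033 to 0.048. After subtraction it was 0.51 for Gpam, 0.49 for Plin3, 0.25 for Dgat2, 0.17 for Mgll, and 0.0051 for Pnpla2. It was then −0.20 for Plin4, −0.29 for Dgat1, −0.33 for Lipe, and −0.34 for Plin2. The 4 brown adipocyte markers, Ucp1, Cidea, Elovl3, and Otop1, were lower in the HFD group in 4 of 4 genes. Cidea and Elovl3 were called, against 1.11% of all genes called lower. The sum of the 4 brown adipocyte markers was 29.17 to 795.6 CPM in the control group and 1.705 to 5.788 CPM in the HFD group. Of the 9 fast fibre markers, 8 had a higher fitted level in HFD mice and none was called, and their sum was 63800 to 111700 CPM in the control group and 110300 to 120400 CPM in the HFD group. The sum of the 3 endothelium markers was 213 to 257.8 CPM in the control group and 162.8 to 194.5 CPM in the HFD group, without overlap. The sum of the 3 Schwann cell markers did not overlap either, with 34.04 to 107.5 CPM in the control group and 21.96 to 29.15 CPM in the HFD group. The part of these cell types and of fibre types in the values of the 10 genes was not tested.

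Between the 10 genes, the closest pair after subtraction of the group means was Plin2 and Dgat1 (r = 0.97, n = 16 mice), followed by Lipe and Dgat1 (0.95) and Plin2 and Lipe (0.93). Gpam was negative with Lipe (−0.63), Plin4 (−0.59), and Dgat1 (−0.58). Before subtraction, Pnpla2 and Dgat2 had an r of 0.96, and Plin3 and Plin5 had an r of 0.74.

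**Figure D4:**
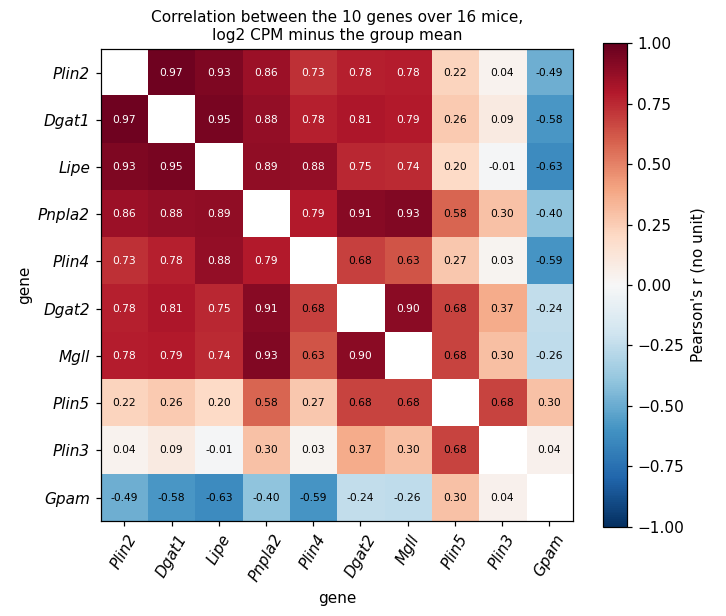
Pearson's r between each pair of the 10 genes over 16 mice, computed on log2 CPM after subtraction of the group means (both axes, genes; color, r from −1 to 1). Plin2, Dgat1, Lipe, Pnpla2, Plin4, Dgat2, and Mgll are positive with one another, from 0.63 for Plin4 and Mgll to 0.97 for Plin2 and Dgat1, and Gpam is negative with Lipe at −0.63.

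Among all genes tested, the genes whose log2 CPM over the 16 mice was most like that of each member were the following. Pnpla2 was most like Slc27a1, a fatty acid transport protein (r = 0.99), Aifm2 (0.98), and Fam13a (0.97), and Dgat2 was most like Pnpla2 (0.96), Slc27a1 (0.95), and Aifm2 (0.95). Plin5 was most like Fitm2, a protein of droplet formation (r = 0.93), Retsat (0.91), and Etfa, a subunit of the mitochondrial electron transfer flavoprotein (0.91). Lipe was most like Sik2, Csad, and Por (each 0.99), and Dgat1 was most like Bag4 (0.99), Aco1 (0.98), and Uck1 (0.98). Plin2 was most like Sgpl1, Adcy3, and Tgoln1 (each 0.98). Gpam was most like Aldh1a1 (0.95), Ice1 (0.91), and Ago4 (0.90). Plin4 was most like A530016L24Rik (0.94), Mgll was most like Miga2 (0.93), and Plin3 was most like Tm4sf1 (0.90). After subtraction of the group means, Slc27a1 and Aifm2 remained the nearest genes to Pnpla2 (0.98 and 0.97), Bag4 remained nearest to Dgat1 (0.99), and Aldh1a1 remained nearest to Gpam (0.97). For Plin5, the nearest were then Gm26684, Akap1, and Pank1 (0.91 to 0.92), and Fitm2 was no longer among the first 3.

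Of the 52 deposited transcripts of the 10 genes, 43 were tested and none was called in HFD mice relative to control mice, against 0.0157% of all transcripts. None was called in the HFD + RSV group (0% of all transcripts) or in the HFD + metformin group (0.00449%) against the HFD group. At an unadjusted P below 0.05, 22, 1, and 11 of the 43 passed in these comparisons, against 13.1%, 5.02%, and 6.07% of all transcripts. With an absolute log2FC above 1 as well, 21, 1, and 10 passed, against 5.12%, 2.68%, and 3.02%. Most genes were carried by a single transcript in each group. ENSMUST00000033001 held 94.2% to 96.2% of the counts of Dgat2 in the group means, ENSMUST00000113072 held 83.8% to 89.4% of Plin5, and ENSMUST00000002908 held 81.9% to 84.3% of Plin4. For Plin2, ENSMUST00000000466 held 76.4% to 79%, and for Dgat1, ENSMUST00000023214 held 73.6% to 77.6%. Plin3 and Gpam had 1 transcript each. Pnpla2 was divided between ENSMUST00000064151, with 54.2% to 58.6%, and ENSMUST00000164016, with 22.1% to 26.4%.

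Lipe has 8 deposited transcripts, and ENSMUST00000206861 held 56.6% of its counts in the control group and 68.1% in the HFD + RSV group. Mgll differed from the other genes. ENSMUST00000089449 held 52.2%, 88.3%, 91.9%, and 85.8% of its counts in the control mice and 8.08%, 84.4%, 7.66%, and 6.52% in the HFD mice. ENSMUST00000113585 and ENSMUST00000163271, which have other starts and the same end, held most of the remainder. The HFD + RSV mice were split in the same way, with 13%, 82.1%, 86.9%, and 4.95%, so mice of 1 group lay at both extremes. Reads from shared exons were divided between these transcripts by estimation, and the part of that step in the split was not tested. ENSMUST00000089449 had a log2FC of −2.59 in HFD mice relative to control mice (adjusted P = 0.368, edgeR).

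**Figure D5:**
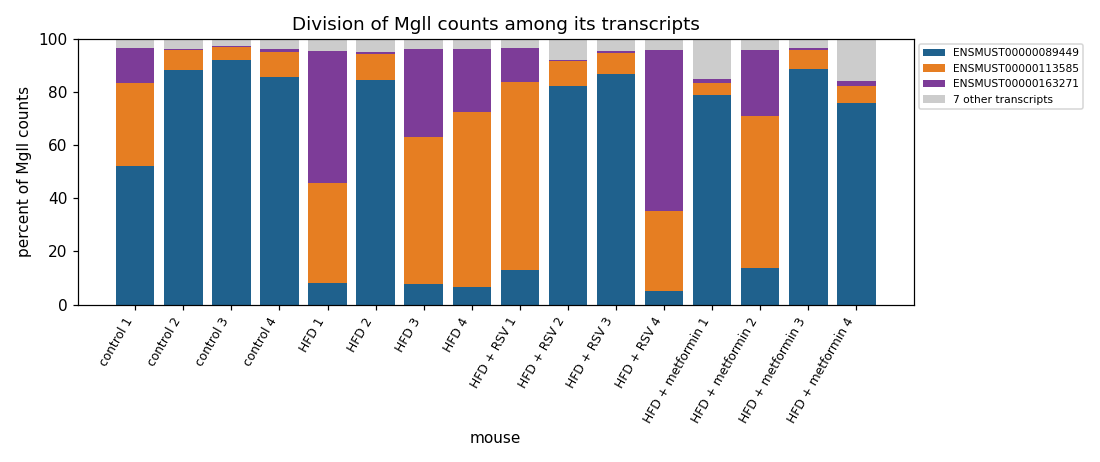
Percent of the Mgll counts of each mouse (vertical axis) assigned to ENSMUST00000089449, ENSMUST00000113585, ENSMUST00000163271, and the 7 other transcripts, with 1 stacked bar per mouse in order of group. HFD replicate 2, at 84.4% for ENSMUST00000089449, differed from the other 3 HFD mice, which had at most 8.08%.

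Other genes of the pathway were read from 4 lists. Of 15 droplet proteins and lipolysis regulators, 14 were tested. In HFD mice relative to control mice, 1 was called lower, against 1.11% of all genes. This was Cidea, a droplet protein of brown adipocytes, which fell by 6.30 on the log2 scale in the HFD group (SE 1.53, adjusted P = 0.0474, edgeR), from a mean of 105 CPM to 1.33 CPM. The control mice had 41.7, 70, 285, and 21.5 CPM, and the HFD mice had 0.779, 1.12, 1.02, and 2.39 CPM, so the groups did not overlap. Without both libraries with the highest adipocyte marker sums, the log2FC of Cidea was −5.07 and the adjusted P was 0.0121. Cidea also belongs to the brown adipocyte markers above. The others of this list with the smallest P were G0s2, an inhibitor of adipose triglyceride lipase (log2FC −2.28, adjusted P = 0.0898), Hsd17b11 (−0.53, 0.123), and Bscl2, the seipin gene (−1.19, 0.151). The median log2FC of the list was −0.48.

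None of the 18 tested genes of triglyceride synthesis was called in HFD mice relative to control mice, and 14 of them had a lower fitted level (median log2FC −0.44). Acsl5, an acyl-CoA synthetase, was at −1.19 (adjusted P = 0.0804), Gk, a glycerol kinase, at −2.30 (0.0885), Lpin1, a phosphatidic acid phosphatase, at −0.38 (0.0997), and Agpat2 at −2.52 (0.101). Of the 12 genes of fatty acid uptake and other lipases, none was called and 9 had a lower fitted level (median −0.87). Those with the smallest P were Lipa, the lysosomal lipase (−1.02, 0.0632), Lpl, the lipoprotein lipase (−1.47, 0.0668), Abhd6 (−0.77, 0.0676), and Slc27a1 (−0.97, 0.074). All 10 fatty acid response genes (PPAR targets) had a lower fitted level and none was called (median −0.46), with Acot1 at −1.06 (0.0604), Acot2 at −0.67 (0.17), and Pdk4 at −0.44 (0.306).

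Against the HFD group, none of these 54 tested genes was called in the HFD + RSV or the HFD + metformin group. The median log2FC of the 4 lists ranged from 0.05 to 0.21 in the HFD + RSV group and from 0.06 to 0.54 in the HFD + metformin group, while that of all genes was 0.0049 and 0.017. Cidea had 4.24, 2.1, 81.5, and 0.898 CPM in the HFD + metformin mice, so its mean of 22.2 CPM was set by replicate 3. Its log2FC against the HFD group was 4.06 (SE 1.42, adjusted P = 0.605, edgeR) with all mice and 0.82 (SE 0.89) without both libraries with the highest adipocyte marker sums.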

How the data were processed

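Paired-end libraries of skeletal muscle RNA, depleted of ribosomal RNA according to the study's methods, were sequenced on an Illumina NovaSeq. The extract protocol in the labels names retinas, and 5 retina markers of 6 listed, those in the table, summed to 0.5053 to 2.041 CPM, so the tissue was taken as labelled. The submitters' processing notes name fastp, HISAT2, and GRCm38 with no versions, and the study names StringTie for counting. The authors deposited expected counts per transcript without normalization. The authors also deposited FPKM values, which are counts per transcript length and per total of both tables. Every sample column was mapped to a mouse. The strand setting of the counting is not given in the sources used here. Coordinates of 51 of the 52 transcripts equal those of GENCODE M21.

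Counts were whole numbers and were summed per gene name after 4 split records were joined. edgeR 4.0.16 in R 4.3.3 was used for 16 mice in 1 fit (filterByExpr with minimum count 10 and minimum total 15, TMM, robust quasi-likelihood), and DESeq2 1.42.0 was an alternative. Called means an adjusted P below 0.05. The SE is the absolute log2FC divided by the square root of F. CPM values use TMM library sizes, with a prior count of 2 on the log2 scale. Exact two-sided permutation tests compared 4 mice with 4. Each replicate is a separate mouse. No 2 libraries were identical, and rank correlations were 0.942 to 0.989 within groups and 0.9375 to 0.9872 between groups. No paired analysis was possible because the replicate numbers only name the mice. The common biological coefficient of variation was 0.261. The script was tested on simulated data.

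The 10 genes, the gene lists, and the marker lists were chosen with earlier results of these data known. Named genes are all 10 members, up to 4 genes per list with the smallest P, the 3 genes most like each member, and transcripts with at least 20% of the counts of their gene in a group mean. Elovl3, Ucp1, Otop1, Cfd, and Lep are named as markers. A gene that this rule also named is not reported here. The lncRNA table was used only for library totals.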

Additional observations from a re-analysis of the deposited data

Results flagged for a closer look

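Of the 40 sets of 4 mice formed by the 10 genes and 4 groups, 2 held a mouse far from the others by Dixon's criterion at the 95% level, which chance gives in about 1 of 20 sets. Plin2 had 205 CPM in control replicate 3, and the other control mice had 56.7 to 68.4 CPM. Dgat1 had 80.1 CPM in the same mouse, against 20.6 to 25.6 CPM in the others. Control replicate 3 also had the highest white adipocyte marker sum of all mice, at 4842 CPM, and the part of this in the values was not tested. Without this mouse and HFD + metformin replicate 3, the log2FC in HFD mice relative to control mice was −0.63 for Plin2 and −1.10 for Dgat1.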

How the results depend on the processing

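In HFD mice relative to control mice, the fitted direction of each of the 10 genes was the same under all alternatives run. The count of called genes was 0 with TMM, relative log expression, upper quartile, and unscaled libraries and without the filter on low counts. It was 4 with DESeq2, 2 with only the 8 mice of both groups, 4 with the 12 mice without metformin, 5 by the criteria of unadjusted P and fold, and 2 without both libraries with the highest adipocyte marker sums, an alternative chosen after seeing the data. Leaving out 1 mouse at a time gave 0 to 1, and the count of 1 was Dgat2 without control replicate 1. For the HFD + RSV group against the control group it was 1 with DESeq2, 2 with the 12 mice (1.53% of all genes), and 5 by the criteria of unadjusted P and fold, which gave 3 for the HFD + metformin group against the HFD group. By these criteria without both libraries, also chosen after seeing the data, it was 3 for the HFD group, 1 for the HFD + RSV group, and 1 for the HFD + metformin group against the control group, and 0 for the HFD + metformin group against the HFD group. By the same criteria with all mice, 21, 1, and 10 transcripts were called in the HFD, HFD + RSV, and HFD + metformin comparisons. For any difference among the 4 groups, leaving out 1 mouse gave 0 to 2, with 2 without HFD + metformin replicate 3. The cause was not tested. All counts with 1 mouse left out stand without the share of all genes called in the same fits. They are therefore not read as a result about the 10 genes.

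Signs changed in 5 genes under resveratrol and in 2 under metformin. In HFD + RSV mice relative to HFD mice, leaving out 1 mouse gave log2FC values of −0.24 to 0.11 for Plin2, −0.20 to 0.13 for Plin4, −0.041 to 0.41 for Plin5, −0.11 to 0.57 for Lipe, and −0.35 to 0.025 for Mgll. Plin2 was 0.024 with unscaled libraries. In the HFD + metformin group against the HFD group, it gave −0.065 to 0.69 for Plin5 and −0.53 to 0.67 for Mgll, both lowest without replicate 3 of the HFD + metformin group. Without both libraries with the highest adipocyte marker sums, Plin5 was −0.063 and Mgll −0.53. Without scaling, the median log2FC of all genes was −0.18 in the HFD comparison, 0.07 in the HFD + RSV comparison, and 0.14 in the HFD + metformin comparison.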
